A study of Mus musculus with 18 samples.

Results

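The canonical Wnt pathway was followed through 10 genes in mouse embryonic stem cells (mESCs), out of 24369 genes in the deposited table of expression values. They were chosen by name: the ligands *Wnt3* and *Wnt8a*, the 4 genes of the Tcf/Lef factors (*Lef1*, *Tcf7*, *Tcf7l1*, *Tcf7l2*), the Wnt target genes *Axin2*, *Sp5* and *Nkd1*, and *Ctnnb1*, which encodes β-catenin. The choice was made with earlier results of these data known. All 10 were found in both data sets and all passed the low-count filter in both. In the differentiation time course, *Wnt3*, *Wnt8a* and *Sp5* passed only through the days when they were higher. *Wnt3* and *Wnt8a* had 3 or fewer counts per library before differentiation, and *Sp5* had 4 or fewer after it began. In build GRCm38.p6 their RefSeq spans are chr2:70474923-70477726 (*Sp5*), chr3:131110297-131224357 (*Lef1*), chr6:72626371-72789045 (*Tcf7l1*), chr8:88521342-88594887 (*Nkd1*), chr9:120933400-120960507 (*Ctnnb1*), chr11:52246527-52283383 (*Tcf7*), chr11:103774175-103818021 (*Wnt3*), chr11:108917828-108950783 (*Axin2*) and chr19:55741797-55933659 (*Tcf7l2*), and *Wnt8a* lies on chromosome 18. A secreted Wnt ligand binds Frizzled and Lrp receptors, which stops the destruction complex (Axin, Apc and the kinase Gsk3) from marking β-catenin for degradation. β-catenin then enters the nucleus, binds Tcf/Lef factors on DNA and turns on target genes, several of which feed back to dampen the signal. In mESCs, Tcf7l1 is known as a repressor of the naive pluripotency genes, and β-catenin relieves that repression.

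All libraries came from E14 mESCs carrying Rex1GFPd2-Cas9, that is, a GFP reporter of *Rex1* (listed as *Zfp42*) together with Cas9. A differentiation time course held 12 libraries, with 3 each at day 0 (before differentiation) and at days 1, 2 and 3. A second set held 6 libraries of cells sorted as Rex1GFP positive (GFP+), with 2 each for wild-type, *Nprl2*-/- (*Nprl2* KO) and *Tsc2*-/- (*Tsc2* KO). *Nprl2* encodes a subunit of Gator1 and *Tsc2* a subunit of the Tsc complex, both negative regulators of mTORC1. Each KO was made by removing a critical exon with a pair of gRNAs, and the labels do not say whether the libraries of a genotype were separate clones, so the p values measure the spread between these libraries only. According to the study's methods, the GFP+ cells had been grown in serum and LIF on feeder cells. The methods describe differentiation in NDiff227 medium with neither LIF nor the inhibitors, and the medium of the day 0 cells of the time course is not given in the sources used here.

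The summed estimated counts lay between 12503005 and 15305054 per library in the time course and between 8610357 and 13780861 in GFP+ cells. *Nprl2* was at 16.1 and 16.99 TPM (transcript abundance scaled for length and depth) in wild-type and at 8.09 and 8.65 TPM in *Nprl2* KO, and *Tsc2* was at 45.0 and 44.9 TPM in wild-type and at 18.8 and 20.3 TPM in *Tsc2* KO. *Pou5f1*, a defining marker of pluripotent cells, averaged between 1233 and 1845 TPM in every group. *Zfp42* fell from 726 to 804 TPM at day 0 to between 11.3 and 14.4 TPM at day 3. Summed TPM of 7 feeder fibroblast markers ran from 108 to 153 in wild-type and from 113 to 118 in *Nprl2* KO, and was 137 in *Tsc2* KO library 1 and 37.4 in *Tsc2* KO library 2, against 8.58 to 41.4 in the time course, with *Lum*, one of the 7, below 1 TPM throughout. Of the same markers, *Col1a1*, *Col1a2*, *Col3a1* and *Postn* averaged higher in every GFP+ genotype than at any day. *Dcn* went the other way after day 0, with means of 6.43, 4.54 and 2.91 TPM at days 1, 2 and 3. In each GFP+ genotype *Dcn* averaged 0.631 TPM or less. *Thy1* averaged 30.1 TPM at day 3 and from 19.0 to 19.8 TPM in the GFP+ genotypes. Fewer cells of a type and less RNA per cell cannot be told apart in these bulk libraries.

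Tcf/Lef factors bind DNA through a short core, and promoters of 4 members that hold it are shown because the results below concern both these factors and their targets. The cores CTTTGA and CTTTGT were searched on both strands (TCAAAG and ACAAAG on the other) in the RefSeq windows from 250 bases before to 50 bases after each start (build GRCm38.p6). The 9 members with an entry had 15 windows. A match was found in 5 of the 15 windows, and in 5 of the 9 members. Of all 32851 windows, 31.2% held at least 1 match and 0.167% held at least 4. *Sp5* had 4 matches upstream of its start and another after it, at bases 42 to 47. *Lef1* had none at its outer starts and 3 at an internal start that lies in an intron of the annotated gene, from base -180 to base -115. *Tcf7l2* had 1 in the second of its windows (chr19:55895071-55895370, plus strand), which is not printed. *Tcf7l1* and *Wnt3* had 1 each, at bases -28 to -23 and at bases 19 to 24, and these are printed as 30 bases since they lie in the annotated first exon. Capitals mark the cores, and each sequence runs 5′ to 3′ on the strand of its gene, at chr2:70474673-70474922 (plus strand) for *Sp5*, chr3:131156044-131156293 (plus) for *Lef1*, chr6:72789056-72789085 (minus) for *Tcf7l1* and chr11:103774181-103774210 (plus) for *Wnt3*.
Sp5: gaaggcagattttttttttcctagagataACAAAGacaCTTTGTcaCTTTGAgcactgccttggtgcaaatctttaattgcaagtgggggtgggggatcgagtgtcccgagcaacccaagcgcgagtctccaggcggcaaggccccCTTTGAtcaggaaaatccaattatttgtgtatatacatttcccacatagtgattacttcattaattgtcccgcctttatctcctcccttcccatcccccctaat
Lef1: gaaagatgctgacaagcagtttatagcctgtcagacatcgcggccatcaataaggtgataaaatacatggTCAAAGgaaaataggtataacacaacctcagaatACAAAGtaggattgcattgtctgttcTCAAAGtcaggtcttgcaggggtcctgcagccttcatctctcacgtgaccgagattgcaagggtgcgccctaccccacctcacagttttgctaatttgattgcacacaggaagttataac
Tcf7l1: gccctgtcaaaaCTTTGTcgccgcagcggc
Wnt3: acctcaagtggaCTTTGTtccaactattgg
These matches describe letters only. No binding was measured.

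The first question was how the Wnt genes behaved as wild-type cells left the naive pluripotent state. Within the first day, *Lef1* rose sharply, *Wnt8a* appeared, and *Axin2* and *Sp5* fell. Between days 1 and 2 *Wnt3* and *Nkd1* rose while *Lef1* and *Axin2* fell, and between days 2 and 3 *Axin2* turned upwards again. Of the 10 members, 7 were called between day 0 and day 1 (4 higher, 3 lower) at an edgeR adjusted p under 0.05, where 60.9% of all 14382 tested genes were called (30.1% higher, 30.8% lower). Between days 1 and 2, 6 were called (3 higher, 3 lower) against a background of 62.1% (32.5% higher, 29.6% lower), between days 2 and 3, 4 (3 higher, 1 lower) against 31.5% (15.9% higher, 15.6% lower), and from day 0 to day 3, 8 (5 higher, 3 lower) against 70.9% (35.0% higher, 35.9% lower). The share of members called was close to that of all genes at each step. Libraries of the groups did not overlap in TPM for 9, 7, 7 and 8 members in these comparisons, against 67.7%, 68.3%, 42.5% and 72.3% of all genes. The median absolute log2 fold change from day 0 to day 3 was 1.69 over the members and 0.510 over all tested genes. The members had been chosen with earlier results of these data known, so this contrast is a description only. Its largest values were those of *Wnt8a* (5.39), *Wnt3* (5.12) and *Sp5* (-4.96). Each of these was against a day with 4 or fewer counts per library.

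**Figure D1:**
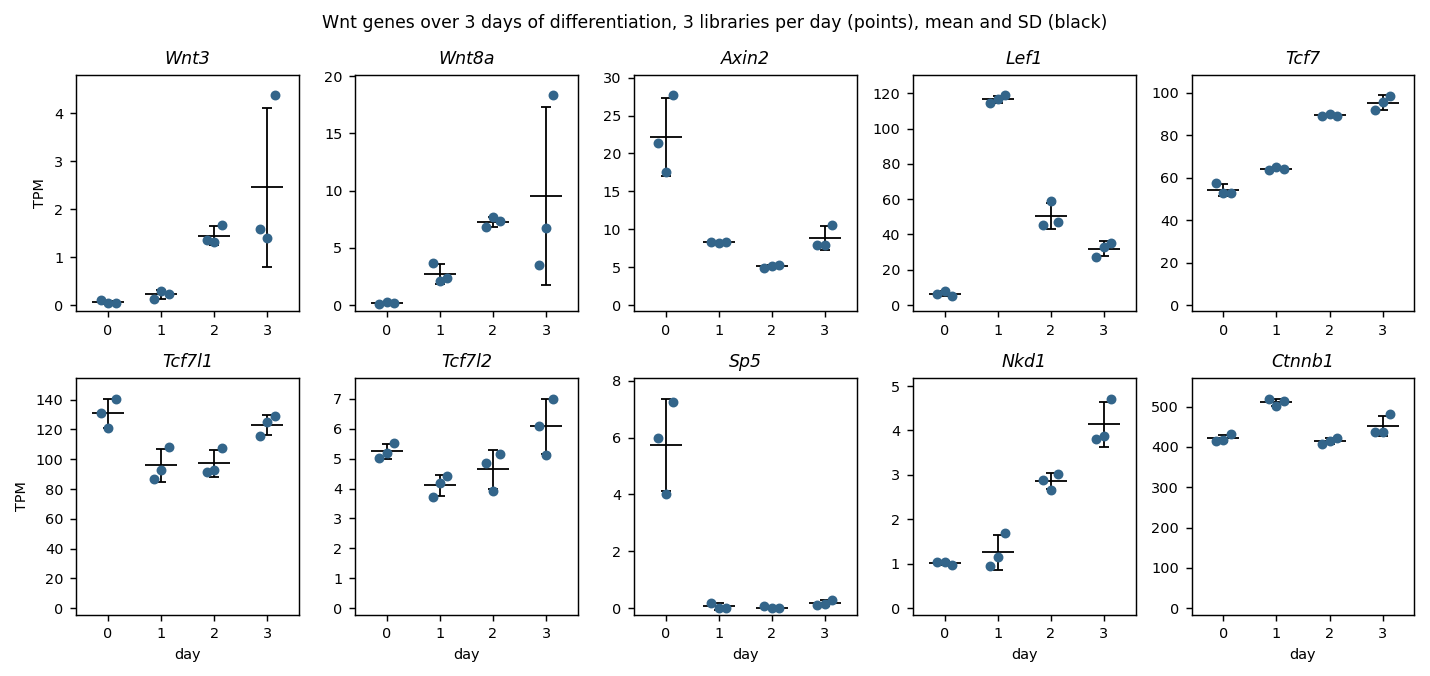
Each panel plots the TPM of 1 Wnt gene (vertical axis, starting at 0) against the day of differentiation, with 1 point per library (3 per day) and black bars for mean and SD. *Lef1* peaks at day 1 with 115 to 119 TPM, *Sp5* is at 0.301 TPM or less after day 0, and 1 library of day 3 stands above the other two for *Wnt3* and *Wnt8a*.

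Both ligands were near the detection limit at day 0. *Wnt3*, a ligand required for the primitive streak in the embryo, was at 0.0988, 0.0398 and 0.0469 TPM at day 0 (1 or 2 counts per library) and at 0.127, 0.302 and 0.237 TPM at day 1. It was at 1.36, 1.31 and 1.67 TPM at day 2 and at 1.58, 1.41 and 4.37 TPM at day 3. The clearest step was from day 1 to day 2, with a log2 fold change of 2.57 ± 0.50 (SE; edgeR adjusted p = 0.000250), and neither the step before it (adjusted p = 0.0916) nor the step after it (adjusted p = 0.135) passed the test. The step before it was called under 3 of 18 alternatives. Among these were limma on log2(TPM + 0.1) (adjusted p = 0.0367) and edgeR without day 3 replicate 3 (adjusted p = 0.0161). Its summed counts went from 4 to 15, a ratio of 3.56 per sequenced count (95% exact interval 1.14 to 14.8, counting error only). The step after it was called without day 3 replicate 2 (adjusted p = 0.0373). From day 0 to day 3 the summed counts went from 4 to 157, which is a ratio of 38.8 per sequenced count (95% exact interval 14.9 to 144, counting error only).

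*Wnt8a*, a ligand expressed around the streak region of the early embryo, came on earlier. It was at 0.108, 0.262 and 0.205 TPM at day 0, at 3.70, 2.08 and 2.39 TPM at day 1, and at 6.83, 7.67 and 7.32 TPM at day 2. The ranges of these 3 days did not overlap. Day 1 exceeded day 0 by a ratio of 13.5 in summed counts (6 against 85 counts, 95% exact interval 5.94 to 37.7), with an edgeR adjusted p of 0.00692. The step to day 2 had a log2 fold change of 1.30 ± 0.53 and missed the threshold (edgeR adjusted p = 0.0528, from 1.72e-04 to 0.143 over the alternatives, with 2.75e-03 without day 3 replicate 1 and 3.49e-04 without day 3 replicate 3). At day 3 the libraries read 3.47, 6.77 and 18.3 TPM, so that day 3 spanned all of the day 2 values and did not differ from day 2 beyond this spread (adjusted p = 0.644).

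The third library of day 3 held the highest value of both ligands. The same library had 4.25 TPM of the streak gene *T*, where the other libraries of that day had 0.740 and 1.64. Its summed level of 6 streak and mesoderm markers was 12.2 TPM, where theirs was 4.34 and 5.42. At day 0 the same sum was 8.89 to 9.69 TPM. *Eomes*, one of the 6, was at 4.87 to 5.59 TPM at day 0 and at 4.96 TPM in the third library of day 3. Without this library, the log2 fold change of *Wnt3* from day 0 to day 3 was 4.45 in place of 5.12. That of *Wnt8a* was 4.54 in place of 5.39, with both still called. From day 2 to day 3, that of *Wnt8a* turned from 0.31 to -0.54 with neither called. The part of these streak markers in the ligand values was not tested.

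The targets did not move as a group. *Axin2* encodes a scaffold of the destruction complex and is a common readout of Wnt activity. It was at 21.4, 17.5 and 27.6 TPM at day 0, at 8.31, 8.18 and 8.31 TPM at day 1, at 4.92, 5.14 and 5.31 TPM at day 2 and at 7.93, 7.91 and 10.6 TPM at day 3. All 3 libraries of day 0 were above every later library, and day 2 was the lowest day with no overlap with its neighbours. The log2 fold change was -1.35 ± 0.14 in the first step (edgeR adjusted p = 3.59e-07), -0.80 ± 0.16 in the second (adjusted p = 3.39e-04) and 0.73 ± 0.16 in the third (adjusted p = 0.00245), and all 3 calls held under every alternative. Day 3 and day 1 overlapped in level.

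*Sp5*, a zinc finger factor directly induced by Wnt signalling and the member with the most cores in its promoter, was nearly lost. It was at 5.97, 4.02 and 7.24 TPM at day 0 (66 to 101 counts). At day 1 it had 3 counts in 1 library and 0 in the others, at day 2 1 count in 1 library and 0 in the others, and at day 3 2, 2 and 4 counts. The summed counts of day 0 exceeded those of day 1 by a ratio of 86.3 (246 against 3 counts, 95% exact interval 29.2 to 421), and *Sp5* was called lower at day 1 (edgeR adjusted p = 6.37e-09) and at day 3 (adjusted p = 6.38e-09) than at day 0. A count of 0 allows up to 3 counts, and days 1 and 2 were at or under this limit in every library, so no change between them was detectable at this depth.

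*Nkd1* went the other way. It encodes an intracellular antagonist that binds Dishevelled, and it was at 1.03, 1.05 and 0.965 TPM at day 0 and at 0.941, 1.14 and 1.69 TPM at day 1, with overlapping ranges (adjusted p = 0.142, or 0.0460 without day 1 replicate 1). It was at 2.89, 2.67 and 3.01 TPM at day 2 and at 3.82, 3.88 and 4.72 TPM at day 3. The second step gave a log2 fold change of 1.09 ± 0.19 (edgeR adjusted p = 5.79e-05) and the whole course 1.95 ± 0.19 (adjusted p = 2.01e-08). The third step was smaller, 0.48 ± 0.16 (adjusted p = 0.0314). That call was lost without replicate 1 or 2 of day 2 (adjusted p = 0.0672 and 0.108), without replicate 3 of day 3 (adjusted p = 0.120), with DESeq2 (adjusted p = 0.0561) and with limma on log2(TPM + 0.1) (adjusted p = 0.0745).

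The 4 Tcf/Lef genes each followed a course of their own. *Lef1*, which acts mainly as an activator with β-catenin, was at 6.40, 8.02 and 5.06 TPM at day 0 and at 115, 117 and 119 TPM at day 1. It then stood at 45.3, 59.1 and 47.2 TPM at day 2 and at 27.1, 33.1 and 35.4 TPM at day 3. No ranges overlapped, and day 3 was still above day 0. The log2 fold changes of the 3 steps were 4.11 ± 0.16 (edgeR adjusted p = 1.21e-10), -1.30 ± 0.13 (adjusted p = 1.72e-06) and -0.70 ± 0.13 (adjusted p = 0.00196). Most of the signal came from 2 of the 3 deposited *Lef1* transcripts, of 3532 and 2305 bases, at 71.5 ± 0.66 and 45.2 ± 2.5 TPM (SD, n = 3) at day 1, and both followed the same order of days. Kallisto divides reads between transcripts of a gene, so these parts carry that uncertainty.

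*Tcf7*, the other mainly activating factor, rose by smaller steps. It was at 57.6, 52.9 and 52.5 TPM at day 0, at 63.7, 64.8 and 63.9 TPM at day 1, at 88.9, 90.1 and 88.9 TPM at day 2 and at 91.7, 95.5 and 98.5 TPM at day 3. It was called in the first step (log2 fold change 0.31 ± 0.06, edgeR adjusted p = 1.17e-04) and in the second (0.36 ± 0.06, adjusted p = 1.70e-05), and missed the threshold in the third (0.05 ± 0.06, adjusted p = 0.539).

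*Tcf7l1*, the repressor, was the most abundant of the 4 at day 0 and dipped. It was at 131, 121 and 141 TPM at day 0, at 86.6, 93.0 and 108 TPM at day 1, at 91.5, 92.6 and 108 TPM at day 2 and at 116, 125 and 129 TPM at day 3. Days 1 and 2 overlapped, and so did days 0 and 3. The fall in the first step (log2 fold change -0.38 ± 0.08, edgeR adjusted p = 2.85e-04) and the rise in the third (0.30 ± 0.08, adjusted p = 0.00674) held under every alternative. The difference between days 3 and 0 was -0.17 ± 0.08 with an adjusted p of 0.0484, and it was called under 6 of 20 alternatives, with adjusted p values from 0.0157 to 0.393. Leaving out replicate 1 or 3 of day 0 (adjusted p = 0.0814 and 0.202) or replicate 1, 2 or 3 of day 3 (adjusted p = 0.154, 0.0573 and 0.0662) each ended it, and so did leaving out replicate 2 of day 1 or replicate 1 or 2 of day 2 (adjusted p = 0.0588, 0.0554 and 0.0513).

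*Tcf7l2*, the main Tcf factor of the adult intestine, was the scarcest. It lay between 3.72 and 6.99 TPM in the 12 libraries. Day 1 (3.72 to 4.42 TPM) lay below day 0 (5.01 to 5.51 TPM) with no overlap, and the later steps overlapped. No step was called (edgeR adjusted p = 0.0706, 0.593 and 0.0596), although the first was when the compared groups were fitted alone (adjusted p = 0.0429). The third step was called without day 2 replicate 3 (adjusted p = 0.0280) or day 3 replicate 2 (adjusted p = 0.0301). Its reads were spread over 8 transcripts and are not given by transcript.

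Seen as shares of their summed TPM, the factors changed places. *Tcf7l1* made up 66.4% ± 2.3 (SD, n = 3) of the sum at day 0 and *Lef1* 3.32% ± 0.91. At day 1 *Lef1* was the largest part with 41.6% ± 1.3, and *Tcf7l1* had 34.1% ± 2.3. *Lef1* then fell to 20.9% ± 2.8 and 12.4% ± 1.0 at days 2 and 3, while *Tcf7l1* came back to 40.2% ± 2.8 and 48.0% ± 0.26 and *Tcf7* reached 37.0% ± 1.4 and 37.2% ± 0.85. The summed level went from 197 ± 8.7 TPM at day 0 to 281 ± 13 TPM at day 1, 242 ± 9.7 TPM at day 2 and 256 ± 15 TPM at day 3. These shares are levels of RNA and say nothing of the amounts of protein.

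**Figure D2:**
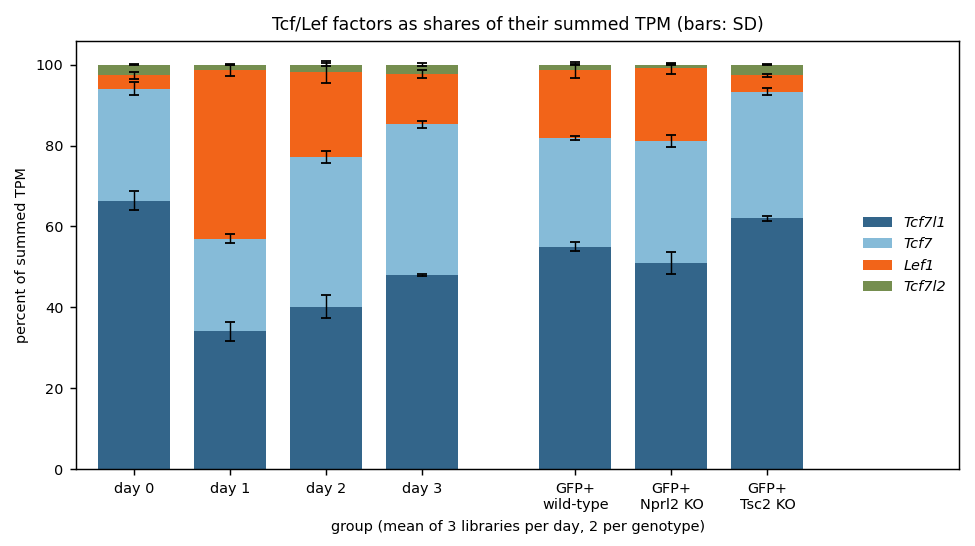
Stacked bars give each Tcf/Lef gene as a percentage of the summed TPM of the 4 (vertical axis, 0 to 100), as means of 3 libraries per day and of 2 libraries per GFP+ genotype, with black bars for the SD. *Lef1* fills 41.6% at day 1 and 4.07% in *Tsc2* KO.

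*Ctnnb1* was abundant and nearly level throughout. β-catenin is regulated mainly through its stability, and its RNA was at 416, 417 and 431 TPM at day 0, at 518, 502 and 513 TPM at day 1, at 407, 415 and 423 TPM at day 2 and at 438, 437 and 481 TPM at day 3. Day 1 stood above all other days with no overlap. It was called higher in the first step (log2 fold change 0.35 ± 0.05, edgeR adjusted p = 3.79e-06) and lower in the second (-0.42 ± 0.05, adjusted p = 4.96e-07), and days 3 and 0 differed by 0.02 ± 0.05 (adjusted p = 0.771). Exons of *Ctnnb1* overlap those of *Ulk4* on the opposite strand, and exons of *Axin2*, *Lef1* and *Tcf7l1* each overlap an annotated antisense gene. Whether strand was used in the quantification is not given in the sources used here, so reads of such pairs cannot be told apart.

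**Figure D3:**
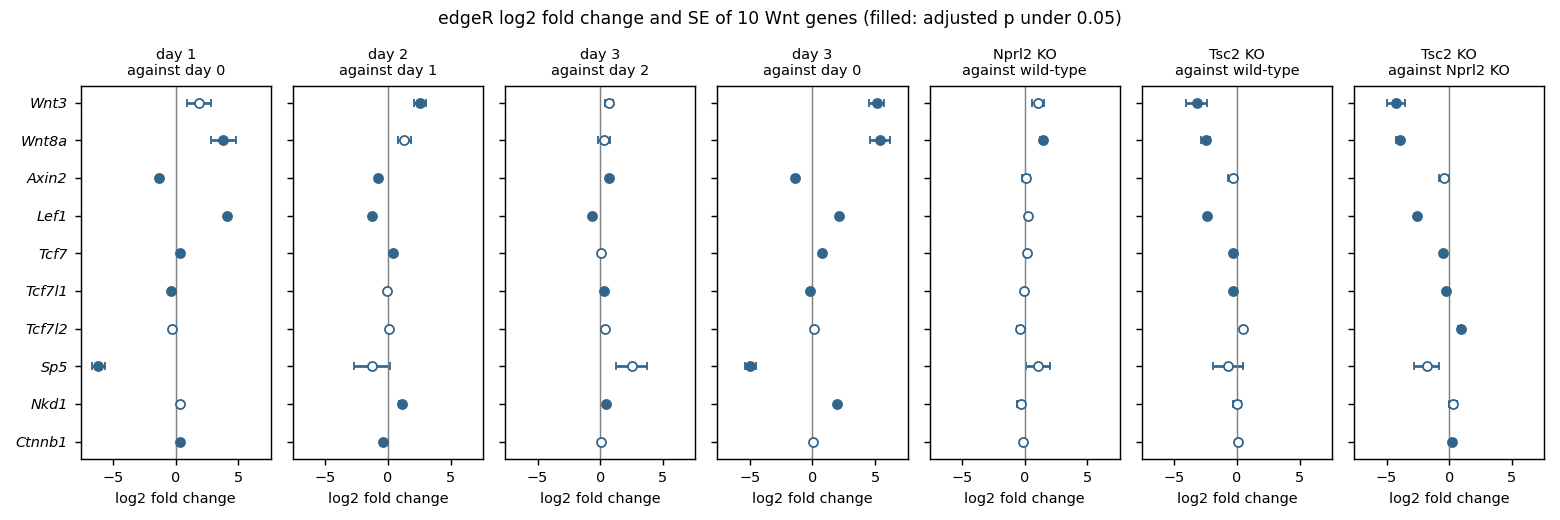
Each of the 7 panels is a comparison and plots the edgeR log2 fold change of the 10 genes (horizontal axis, positive where the group named first is higher), with bars for the SE and filled points for an adjusted p under 0.05. Of the members, 7 are filled between day 1 and day 0, 1 between *Nprl2* KO and wild-type and 5 between *Tsc2* KO and wild-type. Points of *Wnt3*, *Wnt8a* and *Sp5* against groups with 3 or fewer counts in every library depend on the prior count.

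The second question was how loss of *Nprl2* or *Tsc2* changed the same genes in cells that still expressed the *Rex1* reporter. In *Nprl2* KO, *Wnt8a* was higher than in wild-type and no other member passed the test. In *Tsc2* KO, *Wnt3*, *Wnt8a* and *Lef1* were several-fold lower, and *Tcf7* and *Tcf7l1* were slightly lower. The summed TPM of 4 formative epiblast markers was 110 to 115 for *Tsc2* KO, 386 to 462 for wild-type and 532 to 624 for *Nprl2* KO, and *Zfp42* averaged 868, 591 and 430 TPM in the same order. The part of these markers in the Wnt gene values was not tested. Between *Nprl2* KO and wild-type 1 of the 10 members was called (higher), where 6.43% of 13725 tested genes were called (2.78% higher). Between *Tsc2* KO and wild-type 5 were called, all lower, where 29.1% of genes were called and 14.2% were called lower. Between the KOs, 7 were called (2 higher and 5 lower in *Tsc2* KO), where 34.2% of genes were called (17.5% higher, 16.6% lower). Libraries did not overlap in TPM for 5, 7 and 8 members in these comparisons, against 51.9%, 66.3% and 68.2% of all genes. In 4 members the KOs lay on opposite sides of both wild-type libraries and were called against each other, which held for 13.3% of all genes. Both KOs were compared with the same wild-type libraries, so their differences from it are not independent.

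**Figure D4:**
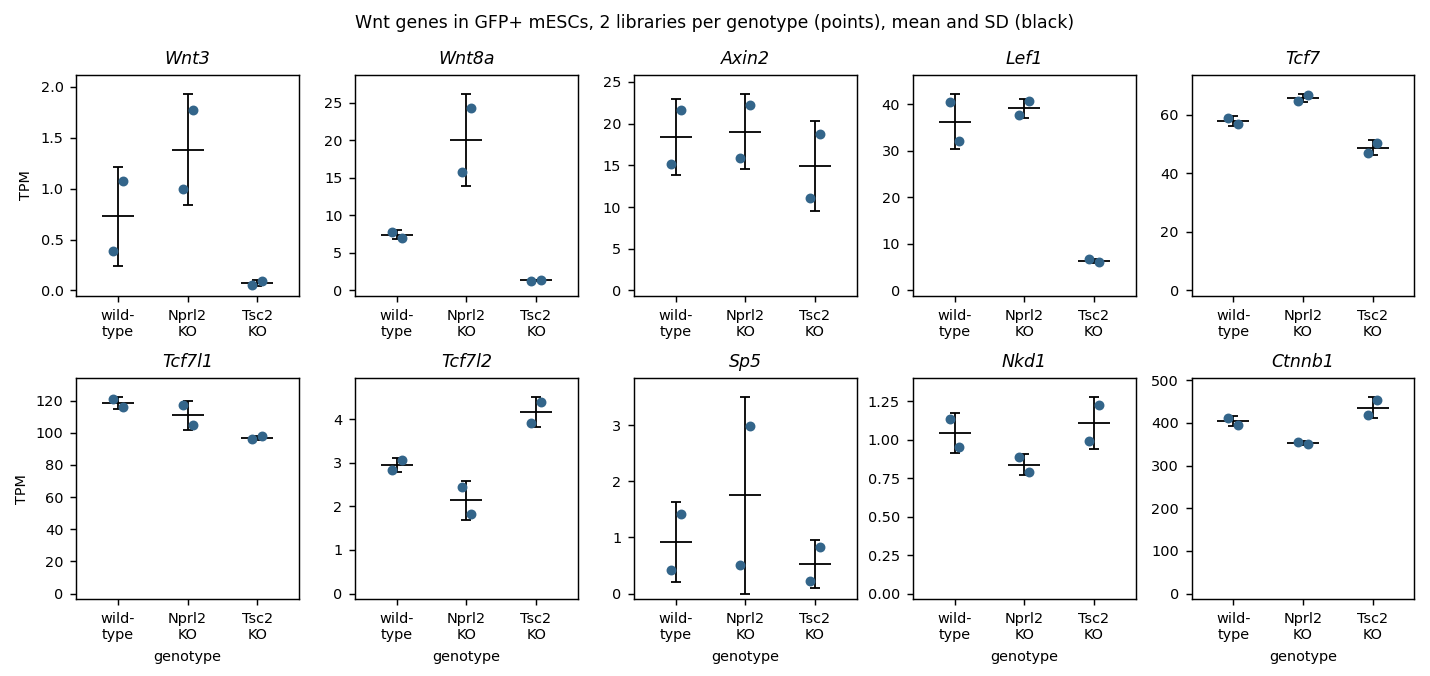
Each panel plots the TPM of 1 Wnt gene (vertical axis, starting at 0) in GFP+ cells of 3 genotypes, with 1 point per library (2 per genotype) and black bars for mean and SD. *Lef1* lies at 6.04 and 6.66 TPM in *Tsc2* KO and at 32.1 TPM or more in the other libraries, and *Axin2* overlaps between all genotypes.

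*Wnt8a* differed in every pair of genotypes. It was at 7.83 and 7.03 TPM for wild-type, 15.7 and 24.4 TPM for *Nprl2* KO, and 1.29 and 1.38 TPM for *Tsc2* KO, with no overlap. Its log2 fold change was 1.46 ± 0.23 in *Nprl2* KO against wild-type (edgeR adjusted p = 0.00351), and without *Nprl2* KO replicate 2 it was 1.08 with an adjusted p of 0.0535. For *Tsc2* KO it was -2.51 ± 0.33 relative to wild-type (adjusted p = 1.71e-04) and relative to *Nprl2* KO -3.96 ± 0.29 (adjusted p = 1.43e-06). Both of these held under every alternative.

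*Wnt3* stood at 0.386 and 1.07 TPM for wild-type, 0.997 and 1.77 TPM for *Nprl2* KO, and 0.0489 and 0.0903 TPM for *Tsc2* KO, the last with 1 and 2 counts. Wild-type and *Nprl2* KO overlapped (edgeR adjusted p = 0.243). The summed counts of wild-type exceeded those of *Tsc2* KO by a ratio of 9.69 per sequenced count (22 against 3 counts, 95% exact interval 2.91 to 50.6), with an adjusted p of 0.0112. That call was lost without wild-type replicate 2 (adjusted p = 0.104), without *Tsc2* KO replicate 1 (adjusted p = 0.0645) or 2 (adjusted p = 0.0592), and with limma on log2(TPM + 1) (adjusted p = 0.0642). Without wild-type replicate 1 the log2 fold change was -3.87, and without wild-type replicate 2 it was -2.38. The ratio of *Nprl2* KO to *Tsc2* KO was 20.8 (57 against 3 counts, 95% exact interval 6.77 to 104) and held under every alternative that tested it (adjusted p = 5.84e-04).

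*Lef1* gave the clearest difference of the Tcf/Lef genes. It was at 40.4 and 32.1 TPM for wild-type, 37.7 and 40.6 TPM for *Nprl2* KO, and 6.66 and 6.04 TPM for *Tsc2* KO. The *Tsc2* KO libraries were within the 5.06 to 8.02 TPM of day 0. The wild-type library at 32.1 TPM was within the 27.1 to 35.4 TPM of day 3. The remaining libraries of wild-type and *Nprl2* KO lay above that range and below the 45.3 to 59.1 TPM of day 2. *Zfp42* averaged 591 TPM in wild-type and 430 TPM in *Nprl2* KO, against 12.8 TPM at day 3. The sets were fitted apart and no test compares them. The log2 fold change was -2.36 ± 0.12 in *Tsc2* KO against wild-type (edgeR adjusted p = 2.23e-07) and -2.60 ± 0.12 against *Nprl2* KO (adjusted p = 4.22e-08), both held under every alternative. In *Nprl2* KO against wild-type it was 0.23 ± 0.11 (adjusted p = 0.218).

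The other factors moved less. *Tcf7* was at 58.9 and 56.6 TPM for wild-type, 64.7 and 66.6 TPM for *Nprl2* KO, and 47.0 and 50.5 TPM for *Tsc2* KO, with no overlap. Its log2 fold change in *Tsc2* KO was -0.28 ± 0.08 against wild-type (edgeR adjusted p = 0.0238) and -0.50 ± 0.08 against *Nprl2* KO (adjusted p = 5.57e-04). The former was lost with DESeq2 (adjusted p = 0.0785) and without either wild-type library (replicate 1: 0.0987, replicate 2: 0.0664) or either *Tsc2* KO library (replicate 1: 0.139, replicate 2: 0.0793), given as adjusted p.

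*Tcf7l1* was at 121 and 116 TPM for wild-type, 117 and 105 TPM for *Nprl2* KO, and 95.9 and 97.7 TPM for *Tsc2* KO. *Tsc2* KO lay below all other libraries, with a log2 fold change of -0.33 ± 0.07 against wild-type (edgeR adjusted p = 0.00473), which held under every alternative. Against *Nprl2* KO it was -0.27 ± 0.07 (adjusted p = 0.0112), a call lost without *Nprl2* KO replicate 1 (adjusted p = 0.105), without *Tsc2* KO replicate 1 or 2 (adjusted p = 0.0569 and 0.0732) and with limma on either TPM scale (adjusted p = 0.0783 and 0.0781).

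*Tcf7l2* had the opposite order, with 2.83 and 3.05 TPM for wild-type, 2.45 and 1.82 TPM for *Nprl2* KO, and 3.91 and 4.40 TPM for *Tsc2* KO. *Tsc2* KO exceeded *Nprl2* KO by 0.90 ± 0.21 on the log2 scale (edgeR adjusted p = 0.00546, or 0.0633 without *Nprl2* KO replicate 2) and was not called against wild-type (0.50 ± 0.21, adjusted p = 0.0899). As shares of the summed Tcf/Lef TPM, *Lef1* had 16.8% ± 1.9 (SD, n = 2) in wild-type, close to the 17.99% ± 1.4 of *Nprl2* KO, while *Tsc2* KO had 4.07% ± 0.37, and *Tcf7l1* had 55.0% ± 1.1, 50.9% ± 2.7 and 62.0% ± 0.61. The summed level was 215 ± 11 TPM for wild-type, 218 ± 6.2 TPM for *Nprl2* KO, and 156 ± 3.6 TPM for *Tsc2* KO.

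None of the target genes among the members (*Axin2*, *Sp5* and *Nkd1*) was called between genotypes. *Axin2* was at 15.2 and 21.7 TPM for wild-type, 15.9 and 22.2 TPM for *Nprl2* KO, and 11.1 and 18.7 TPM for *Tsc2* KO. Library 2 was higher than library 1 in each genotype, by 1.43, 1.40 and 1.68 times. *Axin2* was not called in *Nprl2* KO (log2 fold change 0.10 ± 0.35, edgeR adjusted p = 0.913) or *Tsc2* KO (-0.33 ± 0.35, adjusted p = 0.557) against wild-type. Between the KOs its log2 fold change, as *Tsc2* KO minus *Nprl2* KO, was -0.43 ± 0.35 (edgeR adjusted p = 0.416). With no filter on low counts, *Axin2* was called in *Tsc2* KO against wild-type (adjusted p = 0.0213) and against *Nprl2* KO (adjusted p = 9.11e-04).

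*Sp5* was at 0.422 and 1.42 TPM for wild-type, 0.513 and 2.99 TPM for *Nprl2* KO, and 0.225 and 0.829 TPM for *Tsc2* KO, again with library 2 above library 1 each time, by 3.37, 5.82 and 3.69 times. *Wnt3* was the third member with library 2 higher in all 3 genotypes, which held for 19.5% of 13082 tested genes. Neither KO was called for *Sp5* (adjusted p = 0.590 and 0.690). Between the KOs its adjusted p was 0.219, or 0.0225 without *Nprl2* KO replicate 1 and 8.03e-04 with no filter on low counts. *Nkd1* lay between 0.790 and 1.23 TPM in the 6 libraries and was not called (adjusted p = 0.686 and 0.971), with both *Nprl2* KO libraries (0.887 and 0.790 TPM) below the other 4. For *Axin2* and *Sp5* the libraries of all 3 genotypes overlapped.

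*Ctnnb1* was at 412 and 395 TPM for wild-type, 356 and 350 TPM for *Nprl2* KO, and 418 and 453 TPM for *Tsc2* KO. *Tsc2* KO exceeded *Nprl2* KO by 0.22 ± 0.06 on the log2 scale (edgeR adjusted p = 0.0125), and this call was lost without *Nprl2* KO replicate 2 (adjusted p = 0.0523) or *Tsc2* KO replicate 2 (adjusted p = 0.0970). Neither KO was called against wild-type (adjusted p = 0.185 and 0.362). The TPM that kallisto gave the 2 deposited *Ctnnb1* transcripts differed in share between the sets, although no test compares the sets. Reads are divided between these transcripts, so the values carry the uncertainty given for *Lef1*. The transcript of 3440 bases was at 107 ± 18 TPM for wild-type, 56.3 ± 2.5 TPM for *Nprl2* KO, and 99.7 ± 2.5 TPM for *Tsc2* KO (SD, n = 2) and at 279 ± 13 TPM at day 0 (n = 3). The transcript of 3640 bases was at 296 ± 5.9, 296 ± 1.2 and 336 ± 27 TPM in the 3 genotypes and at 142 ± 11 TPM at day 0. *Tsc2* KO library 2, with the lowest feeder marker level, held between 0.907 and 1.24 times the TPM of library 1 for 7 of the 10 members, and 1.68 times for *Axin2*, 1.85 times for *Wnt3* and 3.69 times for *Sp5*. The part of the feeder markers in these values was not tested.

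The rest of the pathway was read through 97 further genes in 9 lists, of which 78 were tested in the time course. Of these lists, 1 holds 4 naive genes known to be repressed by Tcf7l1, which are counted in all totals of the 97 below. Between day 0 and day 1, 16 of the 78 were called higher and 37 lower, where 30.1% and 30.8% of all tested genes were. The 37 included all 4 naive genes. Between days 1 and 2, 38 were called higher and 16 lower, where 32.5% and 29.6% of all were. From day 2 to day 3, 22 were called higher and 7 lower (15.9% and 15.6% of all), and over the whole course 38 higher and 26 lower (35.0% and 35.9% of all). The median log2 fold change was -0.27, 0.31, 0.09 and 0.16 in these comparisons, where that of all tested genes was 0.00065, 0.02, -0.0084 and -0.01.

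All 3 genes of ligand secretion and release fell in the first step, where 30.8% of all tested genes were called lower. *Porcn*, which attaches the lipid that Wnt ligands need, went from 17.8 ± 3.8 to 5.29 ± 1.8 TPM (SD, n = 3), and *Wls*, the carrier of lipid-bearing ligands, from 8.98 ± 1.8 to 2.57 ± 0.44 TPM. *Notum*, a secreted enzyme that inactivates Wnt ligands and is itself a Wnt target, went from 43.0 ± 5.7 to 12.2 ± 1.3 TPM at day 1 and to 0.587 ± 0.33 TPM at day 3. *Wls* then rose to 24.7 ± 4.1 TPM at day 3, above its level at day 0 (log2 fold change 1.36 ± 0.18, edgeR adjusted p = 6.08e-06). Of 17 other Wnt ligands, 7 were tested. At day 3 against day 0, 3 of these were called higher and 2 lower, where 35.0% and 35.9% of all tested genes were. *Wnt9a* (0.385 ± 0.15 to 3.98 ± 0.81 TPM) and *Wnt4* (0.714 ± 0.29 to 3.23 ± 0.68 TPM) were among those called higher.

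Among receptors and the R-spondin system, 9 of 21 tested genes were lower and 5 higher at day 1. Of all tested genes, 30.8% were lower and 30.1% higher in that step. At day 2 against day 1, 15 were higher and 2 lower, where 32.5% and 29.6% of all tested genes were. *Fzd5* fell from 57.5 ± 6.9 to 10.2 ± 1.2 TPM and *Fzd10* from 16.2 ± 1.4 to 2.03 ± 0.26 TPM at day 1, whereas *Fzd2* rose from 4.01 ± 0.98 to 52.6 ± 3.8 TPM between days 0 and 3. *Rspo1*, which stabilises Wnt receptors, rose from 1.43 ± 0.42 to 16.0 ± 2.0 TPM over the same days. Of 8 tested antagonists, 6 fell and 1 rose in the first step and 6 rose in the second. *Sfrp1*, a secreted binder of Wnt ligands, went from 52.9 ± 4.8 to 3.95 ± 0.81 TPM at day 1 and back to 14.1 ± 1.4 TPM at day 3, and *Sfrp2* from 4.66 ± 1.3 TPM at day 0 to 33.6 ± 3.6 TPM at day 3.

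Inside the cell, 11 of 16 genes of Dishevelled and the destruction complex were higher and 2 lower at day 3 than at day 0, where 35.0% of all tested genes were higher and 35.9% lower, with *Apc2* from 0.219 ± 0.050 to 1.95 ± 0.27 TPM and *Amer1* from 7.14 ± 0.93 to 12.6 ± 0.64 TPM. Of the 9 nuclear cofactors and repressors, 3 were higher and 5 lower. *Tle4*, a corepressor that binds Tcf/Lef factors, was at 65.9 ± 8.0 TPM at day 0, at 128 ± 3.2 TPM at day 1, at 55.9 ± 7.0 TPM at day 2 and at 37.6 ± 3.7 TPM at day 3. *Cdh1*, the cadherin that holds β-catenin at cell junctions, rose from 127 ± 11 to 303 ± 12 TPM at day 1 and stood at 407 ± 19 TPM at day 3.

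Of 7 other Wnt target genes tested, 2 rose and 1 fell in the first step, where 30.1% and 30.8% of all tested genes did. *Myc* (18.6 ± 10 to 64.8 ± 5.4 TPM) and *Ccnd1* (77.5 ± 7.1 to 122 ± 6.1 TPM) rose. *Cdx1*, named after its values were seen, fell from 3.70 ± 1.6 to 0.112 ± 0.056 TPM (129 against 4 summed counts, edgeR adjusted p = 2.17e-07). *Nkd2* rose from 0.892 ± 0.38 to 5.36 ± 0.46 TPM between days 1 and 2. The 4 naive genes known to be repressed by Tcf7l1 all fell in the first step, with *Nanog* from 782 ± 60 to 21.3 ± 1.8 TPM and *Esrrb* from 403 ± 21 to 31.3 ± 3.7 TPM. At day 3 *Nanog* stood at 127 ± 38 TPM, a rise from 36.4 ± 8.3 TPM at day 2 (log2 fold change 1.75 ± 0.21, edgeR adjusted p = 2.96e-04), and *Esrrb* at 1.35 ± 0.19 TPM.

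**Figure D5:**
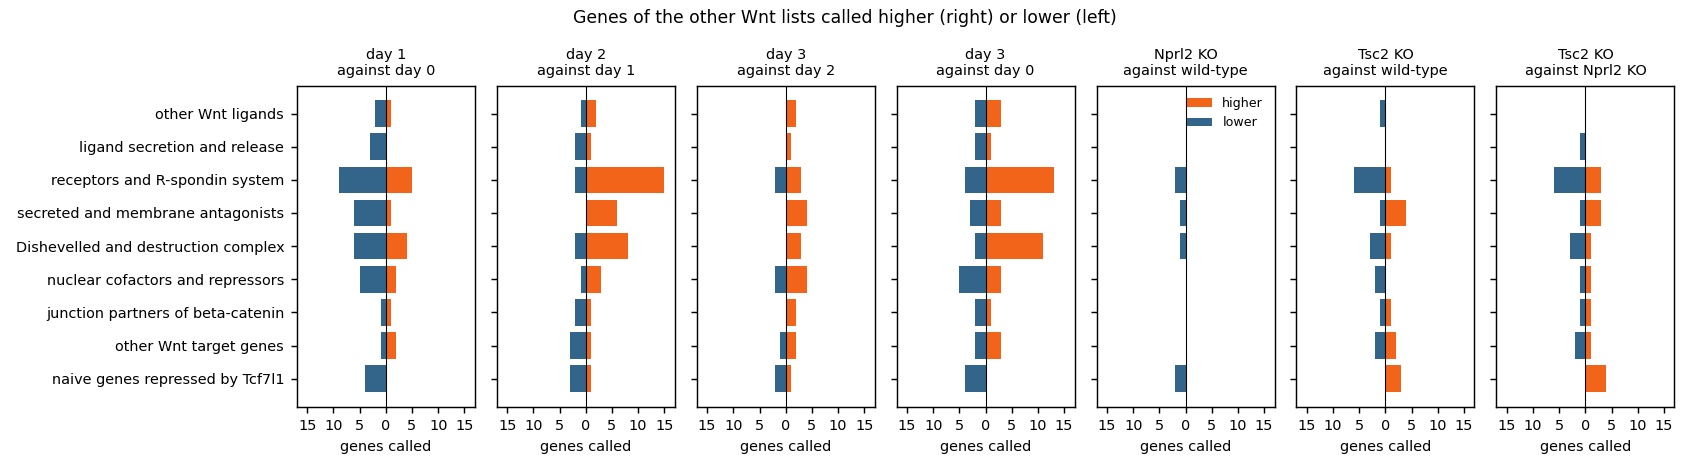
Bars give the number of genes called higher (to the right) or lower (to the left) at an edgeR adjusted p under 0.05 in 9 lists of other Wnt pathway genes, in the 7 comparisons. The lists include that of the naive genes repressed by Tcf7l1. Receptors have 9 lower and 5 higher genes at day 1 against day 0 and 15 higher and 2 lower genes at day 2 against day 1. Lists differ in size, from 3 to 24 genes.

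In GFP+ cells 79 of the 97 genes were tested, and 6 were called in *Nprl2* KO against wild-type, all lower, where 3.66% of all tested genes were called lower. They were led in size by *Tfcp2l1* (35.9 ± 7.1 to 14.4 ± 1.1 TPM, n = 2), *Sfrp1* (14.99 ± 1.5 to 6.81 ± 1.1 TPM) and *Fzd8* (3.85 ± 0.086 to 1.86 ± 0.46 TPM). Of the 6, 2 were naive genes repressed by Tcf7l1 (*Tfcp2l1* and *Esrrb*). *Tsc2* KO had 12 called higher and 16 lower relative to wild-type, where 14.9% and 14.2% of all tested genes were. Of 10 tested antagonists 4 were higher and 1 lower, with *Sfrp1* at 34.3 ± 1.2 TPM in *Tsc2* KO and *Sfrp2* lower (14.6 ± 1.4 to 5.27 ± 0.98 TPM). Of 20 tested receptor genes 6 were lower and 1 higher, with *Ror1* falling from 9.84 ± 1.2 to 2.62 ± 0.76 TPM.

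*Cdx1*, a Wnt target of the posterior embryo, was at 1.24 ± 0.88 TPM in wild-type and 6.70 ± 2.2 TPM in *Tsc2* KO (log2 fold change 2.46 ± 0.46, edgeR adjusted p = 0.00247), and *Ccnd1* went from 94.1 ± 4.6 to 52.9 ± 8.1 TPM. Of the 4 naive genes repressed by Tcf7l1, *Nprl2* KO had 2 below wild-type, *Tsc2* KO had 3 above it, and all 4 were higher in *Tsc2* KO than in *Nprl2* KO. *Esrrb* was at 158 ± 4.6 TPM for wild-type, 79.9 ± 6.6 TPM for *Nprl2* KO, and 329 ± 3.2 TPM for *Tsc2* KO. Between the KOs, 14 of the 79 were called higher and 15 lower in *Tsc2* KO, where 17.5% and 16.6% of all tested genes were.

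Finally, the genes whose course most resembled that of each member were listed, by Pearson's r of log2 CPM over the 12 time-course libraries among 3831 expressed and variable genes. The points share days and libraries, so r is a description. *Lef1* was closest to *Dnmt3a* (r = 0.994), a de novo DNA methyltransferase that went from 10.9 to 200.5 TPM at day 1 and to 57.4 TPM at day 3, followed by *Acsl5* (r = 0.990) and *Wt1* (r = 0.988). *Tcf7* was closest to *Zfp664* (r = 0.997), *Sp5* to *Ptges* (r = 0.985), *Wnt8a* to *Nhsl2* (r = 0.975), *Wnt3* to *Rtl6* (r = 0.985) and *Nkd1* to *Phf21b* (r = 0.985). *Axin2* was closest to *Pgghg* (r = 0.974), *Ctnnb1* to *Irgm1* (r = 0.956) and *Tcf7l1* to *Itga9* (r = 0.912), the lowest of these values. Among the members themselves, *Wnt3* and *Nkd1* had the highest r (0.963), and *Lef1* and *Sp5* the most negative one (-0.896). Over the 6 GFP+ libraries these pairs had r of -0.651 and 0.436. There, r with the closest gene named above was 0.905 for *Lef1*, 0.799 for *Tcf7* and 0.710 for *Wnt8a*. It was 0.0633 for *Nkd1*, -0.0212 for *Wnt3* and -0.124 for *Tcf7l1*. For *Sp5*, *Axin2* and *Ctnnb1* it was -0.513, -0.640 and -0.93.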

How the data were processed

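RNA-seq of 12 time-course and 6 GFP+ libraries was analysed from gene sums of the kallisto estimated counts, rounded to whole numbers, and from TPM, both of which the authors deposited. Per the labels they used kallisto 0.42.1, build mm10 and DESeq2. The DESeq2 tables hold the authors' fold changes and p values and were not used. The low-count filter, TMM normalization and robust quasi-likelihood tests of edgeR 4.0.16 (R 4.3.3) were applied with Benjamini-Hochberg adjustment over all tested genes and a threshold of 0.05, in each set apart. The alternatives were DESeq2 1.42.0, limma 3.58.1 on log2(TPM + 1) and log2(TPM + 0.1), upper-quartile normalization, other filters, fits of the compared groups alone, a replicate block and leaving out each library. The edgeR, DESeq2 and limma steps were tested on simulated data. Of 34079 transcripts, 33713 were assigned to genes through RefSeq and 192 through GENCODE M21. 174 were left out, and transcripts without a gene held 1.65% to 3.57% of counts. The 95% exact intervals and the limit of 3 counts cover counting error only.

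Members, lists and alternatives were chosen with earlier results of these data known. From each list up to 3 called genes with the largest absolute log2 fold change and an average of 1 or more on the log2 CPM scale were eligible to be named. Likeness was limited to genes averaging 1 or more on that scale, with an SD of 0.5 or more.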

Additional observations from a re-analysis of the deposited data

Results flagged for a closer look

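Members whose libraries all lay on opposite sides of wild-type in the 2 KOs, and whose KOs differed from each other by edgeR, numbered 4 of 10, where 13.3% of all tested genes met the same conditions. *Wnt8a* was higher in *Nprl2* KO and lower in *Tsc2* KO, and the KOs differed by -3.96 on the log2 scale, as *Tsc2* KO minus *Nprl2* KO (adjusted p = 1.43e-06). *Tcf7* had the same order with -0.50 (adjusted p = 5.57e-04). *Tcf7l2* had the reverse order with 0.90 (adjusted p = 0.00546), and *Ctnnb1* too, with 0.22 (adjusted p = 0.0125). Of the single KO differences from wild-type behind them, only those of *Wnt8a* in both KOs and of *Tcf7* in *Tsc2* KO passed the test.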

How the results depend on the processing

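Of 38 called results of members, 30 were called under every alternative that tested them and none reversed. With at least 10 counts in every library, 4 members were called between days 3 and 0 in place of 8, since *Wnt3*, *Wnt8a* and *Sp5* were then not tested and *Tcf7l1* missed the threshold (adjusted p = 0.0836). Genes called in *Nprl2* KO against wild-type numbered 883, and 1667 without a low-count filter and 2072 with the replicate block. Leaving out 1 library gave from 0 to 1 members and from 339 to 783 genes called for *Nprl2* KO against wild-type, from 3 to 5 members and from 2225 to 3974 genes for *Tsc2* KO against wild-type, from 2974 to 4791 genes between the KOs, and from 2969 to 5055 genes between days 3 and 2. A group left with 1 library was assumed to vary like the others.

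Values that changed sign were all of results not called in either fit. *Tcf7l1* at day 2 against day 1 was 0.022 under limma on either TPM scale. With 1 library left out, the ranges on the log2 scale were -0.0018 to 0.18 for *Tcf7l2* and -3.21 to 1.91 for *Sp5* in that step, -0.54 to 0.73 for *Wnt8a* at day 3 against day 2, and -0.012 to 0.038 for *Ctnnb1* at day 3 against day 0. For *Nprl2* KO against wild-type they were -0.16 to 0.39 for *Axin2*, -0.15 to 0.026 for *Tcf7l1* and -0.73 to 2.13 for *Sp5*, and for *Tsc2* KO against wild-type -1.93 to 0.32 for *Sp5* and -0.13 to 0.16 for *Nkd1*. The cause was not tested.

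Replicate numbers marked no shared origin in the labels. Deviations of same-numbered libraries correlated between -0.181 and 0.226 in the time course and between 0.161 and 0.307 in GFP+ cells. With the replicate block, *Axin2* was called in *Tsc2* KO relative to wild-type (-0.35, adjusted p = 0.00574) and to *Nprl2* KO (-0.44, adjusted p = 6.51e-04), and *Sp5* relative to *Nprl2* KO (-1.76, adjusted p = 0.00456). It also brought *Wnt3* and *Tcf7l2* at day 1 against day 0 (adjusted p = 0.0463 and 0.0494), *Wnt8a* at day 2 against day 1 (0.0403) and *Tcf7l2* at day 3 against day 2 (0.0414) past the threshold, and ended no call of a member.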
